A study of Homo sapiens with 8 samples.

Results

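The fibroblast growth factor (FGF) ligand genes were examined in H9, a long-established line of human embryonic stem cells, as wild type and as a line labelled EXT1 knockout. The members were the rows of the deposited gene table whose symbol is FGF2, FGF4, FGF8, FGF9, FGF11, FGF12, FGF13, FGF17, FGF18 or FGF19, and all 10 were present among its 15811 genes. Of the other 12 human FGF family symbols listed, FGF10 was in the table and is given beside the members, and the other 11 were not analysed here. Total RNA was sequenced in 4 EXT1-/- libraries, made from 1 H9 line whose EXT1 locus was targeted with CRISPR/Cas9, and in 4 wild-type (WT) H9 libraries. Both groups were kept in E8 medium on vitronectin and were collected 28 h after the change to RPMI-1640 with 6 µM CHIR-99021, a GSK3 inhibitor that activates β-catenin and starts mesendoderm formation. All cells had therefore received this inhibitor, and no uninduced library was analysed here. The labels do not say how many EXT1-/- clones were made or whether replicates came from different cultures. A p-value here is therefore set against library-to-library spread, part of which may be technical.

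FGFs fall into classes that differ in their need for heparan sulfate, the glycan whose chain EXT1 helps to polymerise. Paracrine FGFs, such as FGF2, FGF4, FGF9 and the related FGF8, FGF17 and FGF18, leave the cell and bind FGF receptors together with heparan sulfate as a co-receptor, which also limits how far they spread. FGF19 is an endocrine FGF with weak affinity for heparan sulfate that signals with the co-receptor β-klotho. FGF11, FGF12 and FGF13 are FGF homologous factors: they share the fold but are not secreted by the usual route and act inside cells, where they bind voltage-gated sodium channels. In human pluripotent cells FGF2 signalling through ERK maintains the undifferentiated state, and in vertebrate embryos FGF4, FGF8 and FGF17 are expressed at the primitive streak.

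The values are the authors' normalised read counts, given as whole numbers, and their exact scaling is not given in the sources used here. Libraries summed to between 37737058 and 40017763, so 1 CPM (a library total scaled to 1e6) is 38.9 of them. EXT1 itself had 890, 894, 915 and 980 in the EXT1-/- libraries, against 1776, 1499, 1464 and 1508 in the WT libraries, so its transcript was lower but still present. Mitochondrial transcripts took 9.18 and 9.38% of the counts in EXT1-/- replicates 1 and 4 and 10.67% in WT replicate 1, against 5.30 to 5.43% in the other 5 libraries. The first 3 libraries are called the high set and the other 5 (2 EXT1-/- and 3 WT) the low set. This split is not in the labels, and where it touches a member the values within a set stand beside it. Differences were tested with limma on log2(value + 1) over all 15811 genes, and a gene was called at a Benjamini-Hochberg adjusted p below 0.05. Fold changes are on that scale, where low genes show less than their true change.

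Of the 10 FGF ligand genes, 3 were higher in EXT1-/- cells (FGF9, FGF17 and FGF18), 4 were lower (FGF2, FGF4, FGF11 and FGF13) and 3 were not called (FGF8, FGF12 and FGF19). FGF9 was listed through EXT1-/- libraries alone, as described below, which fixed its direction and leaves 2 higher calls without this limit. Of all genes, 32.0% were called, 15.2% as higher and 16.8% as lower. The median log2 fold change of the 10 genes was -0.04, against 0.01 over all genes, so the ligand genes did not share a direction. EXT1-/- and WT values were fully separated for 7 members, 4 higher and 3 lower, where 33.5% of all genes were, 16.3% as higher and 17.2% as lower. The 4 higher ones include FGF9. An FDR of 0.05 in the authors' deposited table was passed by 8 members and by 26.2% of all genes, and the member called there and not here is FGF8.

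**Figure D1:**
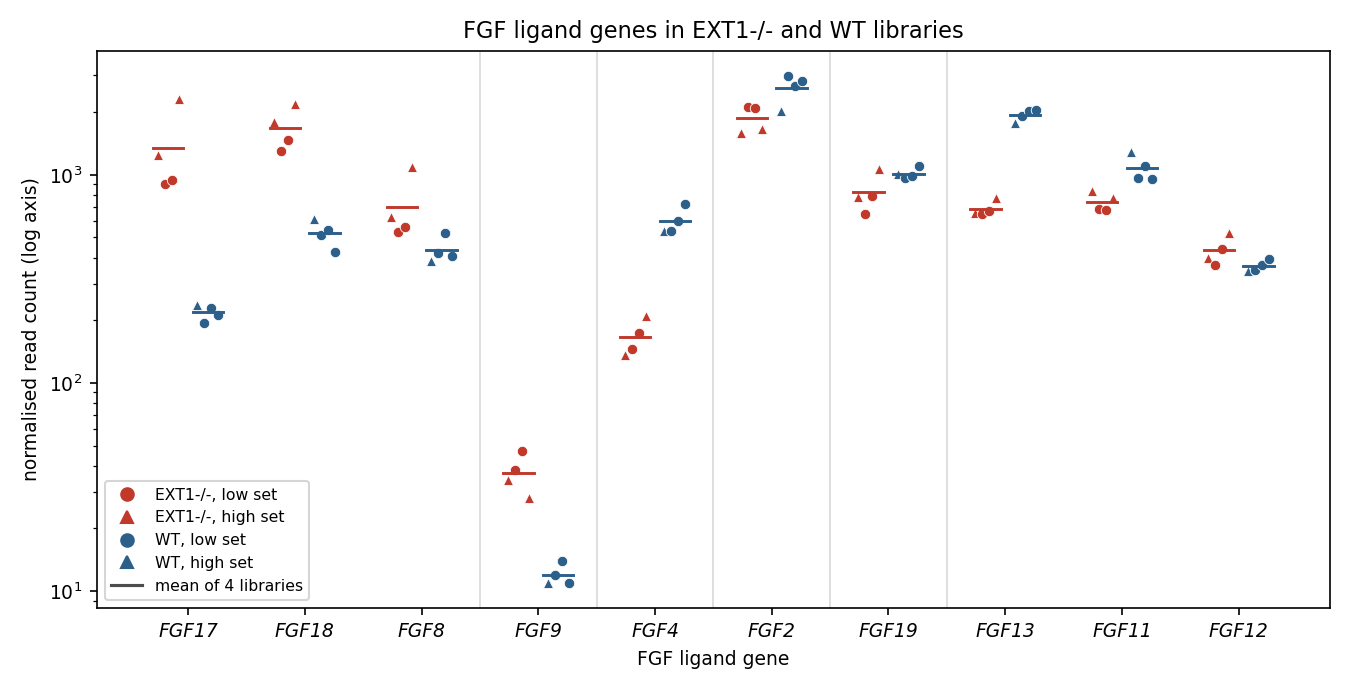
Normalised read count (log axis) of each FGF ligand gene in the 4 EXT1-/- libraries (red, left) and the 4 WT libraries (blue, right); triangles are libraries of the high mitochondrial set, circles those of the low set, and bars are means of 4 libraries. FGF17, FGF18 and FGF9 lie higher in every EXT1-/- library, FGF4, FGF13 and FGF11 lower in every one, and EXT1-/- replicate 4 is the highest EXT1-/- library for FGF17 (2318) and FGF8 (1089).

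In the FGF8 subfamily FGF17 and FGF18 were called higher. FGF18 (ENSG00000156427, chromosome 5, 171419656 to 171457623, plus strand of GRCh38 in GENCODE 29), a ligand best known from bone, cartilage and lung, had 1783, 1307, 1471 and 2184 normalised counts in the EXT1-/- libraries, against 615, 511, 545 and 425 in the WT libraries. The groups did not overlap, and the lowest EXT1-/- value was more than the highest WT value of 615. FGF18 differed by a log2 fold change of 1.67 ± 0.17 (SE), 3.18-fold, with an adjusted p of 0.000115 (limma), and 1.50 within the low set. The RefSeq promoter window of FGF18 (chr5:171419397-171419696, plus strand, GRCh38.p14), which runs from 250 bases before the start of transcription to 50 after it, is shown because FGF18 had the largest rise among members with such a window. Capitals mark every match, on either strand, to 15 short strings described after the last member, none of which overlaps another here.
FGF18 promoter: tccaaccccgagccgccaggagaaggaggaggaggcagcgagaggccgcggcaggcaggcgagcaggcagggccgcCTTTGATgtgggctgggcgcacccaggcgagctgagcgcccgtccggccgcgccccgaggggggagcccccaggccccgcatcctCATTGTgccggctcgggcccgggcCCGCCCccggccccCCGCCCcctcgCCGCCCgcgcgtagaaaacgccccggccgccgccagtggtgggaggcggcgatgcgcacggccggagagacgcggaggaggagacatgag
They are CTTTGAT, the letters of a TCF/LEF motif, 174 bases before the start, CATTGT, of the SOX type, 89 bases before it, and GGGCGG, the GC box, read on the other strand at 3 places.

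FGF17 (ENSG00000158815, chromosome 8, 22042398 to 22048809, plus strand), a ligand of the streak and later of the midbrain, had 1249, 900, 939 and 2318 normalised counts in EXT1-/- replicates 1 to 4, against 238, 193, 228 and 213 in WT replicates 1 to 4. Every EXT1-/- library was above every WT library, and EXT1-/- replicate 4 was the highest. The log2 fold change was 2.52 ± 0.27 (SE), a 5.73-fold difference with an adjusted p of 0.000163 (limma). It was 2.22 without EXT1-/- replicate 4 and 2.12 within the low set, and it passed in both. FGF17 therefore differed by more than the spread between libraries in each of these fits, while its size within the EXT1-/- group varied from library to library.

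FGF8 (ENSG00000107831, chromosome 10, 101770130 to 101780369, minus strand), which in the mouse is needed for cells to leave the primitive streak, had 625, 530, 564 and 1089 normalised counts in the EXT1-/- libraries, against 385, 423, 525 and 406 in the WT libraries. The groups did not overlap, by the margin between 530 in EXT1-/- replicate 2 and 525 in WT replicate 3. The log2 fold change was 0.64 with a 95% interval of 0.14 to 1.13 and an adjusted p of 0.0536 (limma), which missed the threshold. It was 0.29 within the low set (adjusted p 0.0835) and 0.40 without EXT1-/- replicate 4 (adjusted p 0.0380), and with the library set as a term it was 0.58 (adjusted p 0.0399). The call for FGF8 thus turned on how these libraries were handled, and the difference was smaller without EXT1-/- replicate 4. In the authors' deposited table its log2 fold change is 0.69 with an FDR of 0.00479.

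**Figure D2:**
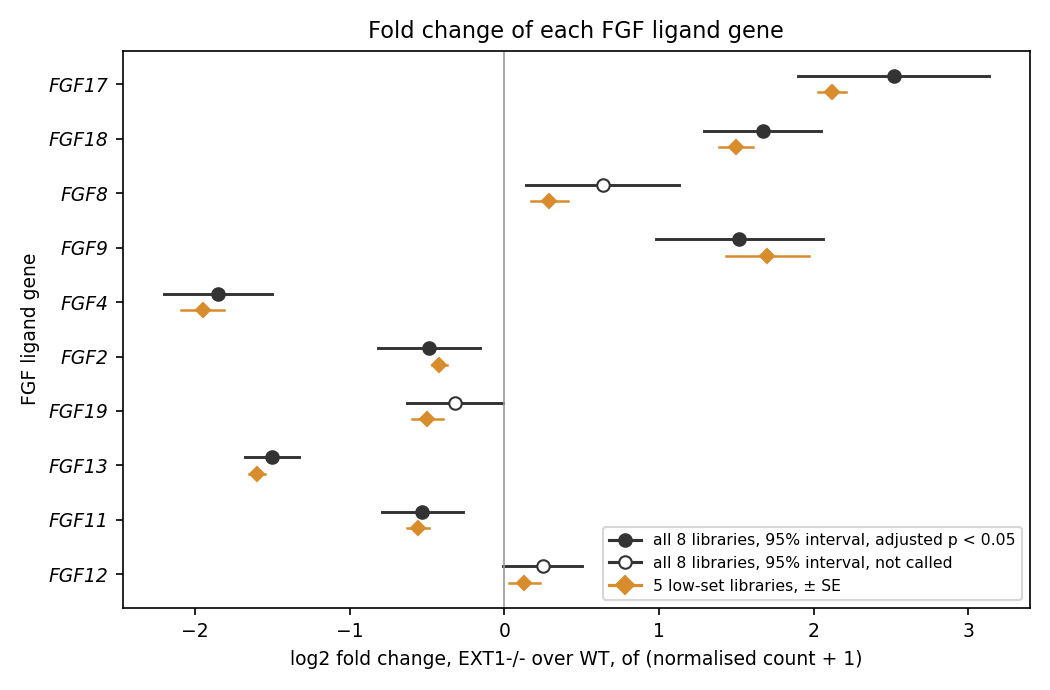
Log2 fold change of each FGF ligand gene, EXT1-/- over WT, in all 8 libraries with its 95% interval (circles, filled where the adjusted p was below 0.05) and within the 5 libraries of the low set with its SE (diamonds). FGF17 (2.52) and FGF4 (-1.85) mark the ends, and FGF8 shrinks to 0.29 within the low set.

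Among the other paracrine ligands, FGF4 and FGF2 were lower and FGF9 was higher in EXT1-/- cells. FGF4 (ENSG00000075388, chromosome 11, 69771016 to 69775403, minus strand), which drives exit from pluripotency through ERK in mouse embryonic stem cells and is there a target of OCT4 and SOX2, had 136, 145, 173 and 210 normalised counts in the EXT1-/- libraries. In the WT libraries it had 534, 536, 598 and 720. Even the highest EXT1-/- library lay well under the lowest WT library, a log2 fold change of -1.85 ± 0.15 (SE), 3.61-fold lower, with an adjusted p of 3.54e-05 (limma). Of the 2 factors just named, POU5F1, which encodes OCT4, was also lower (log2 fold change -0.86), whereas SOX2 was higher (0.94); both were called.

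FGF2 (ENSG00000138685, chromosome 4, 122826708 to 122898236, plus strand), the basic FGF that sustains human pluripotent cells in culture, had 1586, 2116, 2103 and 1659 normalised counts in the EXT1-/- libraries, against 2018, 2979, 2658 and 2834 in the WT libraries. Values split by library set as well as by genotype: the high set had 1586 and 1659 in EXT1-/- and 2018 in WT, and the low set 2116 and 2103 in EXT1-/- and 2658 to 2979 in WT. Within each set the EXT1-/- libraries were the lower ones, but across sets the groups overlapped. With all 8 libraries the log2 fold change was -0.49 ± 0.14 (SE; adjusted p 0.0309, limma), and the call was lost when any of 5 single libraries was left out (adjusted p up to 0.0895). With the set as a term it was -0.38 ± 0.05 with an adjusted p of 0.000108. FGF2 also overlaps NUDT6, a gene on the opposite strand, with 804 exonic bases in common. NUDT6 had 350.2 ± 9.98 normalised counts in EXT1-/- cells and 430.8 ± 12.4 in WT cells (SD, n = 4 each) and was called lower at -0.30, adjusted p 0.00519 (limma). The libraries were made with a stranded kit, but whether the counting used strand is not given in the sources used here, so shared reads cannot be assigned to one or the other.

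FGF9 (ENSG00000102678, chromosome 13, 21671383 to 21704498, plus strand), a ligand of gonad and lung development, was the lowest member, with 34, 38, 47 and 28 normalised counts in the EXT1-/- libraries and 11, 12, 14 and 11 in the WT libraries. The EXT1-/- values averaged 0.950 CPM and the WT values 0.309 CPM. FGF9 differed by a log2 fold change of 1.52 ± 0.24 (SE), 2.87-fold, with an adjusted p of 0.00139 (limma). The lowest second-highest value of any gene in the table was 1.0 CPM, and FGF9 reached 1.01 CPM by that measure in EXT1-/- libraries but 0.313 in WT libraries, so FGF9 entered it through EXT1-/- libraries alone and had to be higher there to be listed. FGF10, which signals from mesenchyme to epithelium in limb and lung, is the reverse case: it had 0, 3, 6 and 7 normalised counts in the EXT1-/- libraries, against 28, 53, 50 and 52 in the WT libraries, and was listed through the WT libraries. Its log2 fold change was -3.55 ± 0.65 (adjusted p 0.00330, limma), with a value that depends on the added 1 because 1 library was at 0. Neither gene's call adds support for a direction of the family.

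FGF19 (ENSG00000162344, chromosome 11, 69698232 to 69704642, minus strand), the endocrine member and in adults a bile acid hormone of the gut, had 782, 648, 792 and 1069 normalised counts in the EXT1-/- libraries, against 1003, 966, 984 and 1099 in the WT libraries. EXT1-/- replicate 4 lay among the WT values and the other 3 EXT1-/- libraries below all of them. The log2 fold change was -0.32 with a 95% interval of -0.63 to -0.01, and it missed the threshold (adjusted p 0.104, limma). Leaving out EXT1-/- replicate 4 gave a call (-0.46, adjusted p 0.00748), as did the low set alone (-0.50, adjusted p 0.00578), a term for the set (-0.37, adjusted p 0.0271) and the replicate number as a block (-0.32, adjusted p 0.0477). FGF19 and FGF4 are neighbours, 66374 bases apart on the same strand, and with all 8 libraries FGF4 was called lower and FGF19 was not. KLB, the gene of β-klotho, was not analysed here.

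The 3 intracellular homologous factors gave 2 falls and 1 gene that was not called. FGF13 (ENSG00000129682, chromosome X, 138614731 to 139222777, minus strand), a sodium channel and microtubule binding protein of neurons, had 653, 646, 669 and 770 normalised counts in the EXT1-/- libraries, against 1769, 1916, 2034 and 2049 in the WT libraries. The 4 values of each group lay close together and far from those of the other. The log2 fold change was -1.50 ± 0.08 (SE), 2.84-fold lower, with an adjusted p of 2.85e-06 (limma), and FGF13 had the smallest adjusted p among the members. FGF13-AS1, an antisense transcript inside the gene, had 41, 41, 47 and 28 normalised counts in the EXT1-/- libraries, against 105, 117, 103 and 126 in the WT libraries. Its log2 fold change of -1.52 ± 0.18 (adjusted p 0.000247, limma) was close to that of FGF13. They share 167 exonic bases, and as strand use in the counting is not given, their reads cannot be told apart there. RefSeq gives 2 promoter windows for FGF13, and the upstream one (chrX:139204974-139205273, minus strand, GRCh38.p14) is shown because FGF13 had the largest fall among members with a window. Capitals again mark every match to the 15 strings.
FGF13 promoter: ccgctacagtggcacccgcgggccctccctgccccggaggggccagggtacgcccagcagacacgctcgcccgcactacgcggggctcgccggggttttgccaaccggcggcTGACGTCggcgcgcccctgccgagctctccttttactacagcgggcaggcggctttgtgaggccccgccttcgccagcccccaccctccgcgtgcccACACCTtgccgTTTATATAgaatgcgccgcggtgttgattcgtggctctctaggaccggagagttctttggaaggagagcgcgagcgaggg
They are TGACGTC at 138 bases before the start, AGGTGT read on the other strand at 41, and TATAAA (other strand) and TATATA, which overlap, at 30 and 28. The other FGF13 window held none of the strings.

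FGF11 (ENSG00000161958, chromosome 17, 7438273 to 7444937, plus strand), a less studied homologous factor, had 839, 683, 681 and 770 normalised counts in the EXT1-/- libraries, against 1291, 966, 1103 and 950 in the WT libraries. The groups did not overlap, and libraries of the high set were the highest in each group. The log2 fold change was -0.53 ± 0.11 (SE; adjusted p 0.00748, limma) and -0.56 within the low set. AC113189.2, which shares 1420 of its 1975 exonic bases with FGF11 on the same strand, averaged 51.8 ± 9.67 in EXT1-/- cells and 54.8 ± 10.4 in WT cells (SD, n = 4 each) and was not called, at -0.08 with an adjusted p of 0.780 (limma). Strand cannot tell their shared reads apart, so this value is no separate contrast to FGF11.

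FGF12 (ENSG00000114279, chromosome 3, 192139395 to 192767764, minus strand), a homologous factor of heart and brain, had 400, 370, 441 and 528 normalised counts in the EXT1-/- libraries, against 345, 348, 367 and 394 in the WT libraries. The groups overlapped, and the log2 fold change was 0.25 with a 95% interval of -0.01 to 0.50 (adjusted p 0.127, limma). FGF12 was not called in any of the 16 alternatives tried (adjusted p 0.0619 to 0.329).

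RefSeq windows were found for 5 of the 10 members, FGF2, FGF11, FGF12, FGF13 and FGF18, with 9 windows in all. FGF4, FGF8, FGF9, FGF17 and FGF19 had no entry. The 15 strings, searched on both strands, were letters of these kinds. CTTTGAT and the variant CTTTGAA are of the TCF/LEF type. CCGGAAG and the longer form CCGGAAGT are of the ETS type. ATGCAAAT is the octamer read by POU factors. TATAAA and the similar string TATATA are of the TATA type. CATTGT is of the SOX type, GGGCGG is the GC box and CACGTG is an E-box. TGACGTCA is the cyclic AMP response element, and the shorter form TGACGTC lies within it. AGGTGT is of the T-box type, AGATGT is given no type here, and CAGATG is another E-box. They were picked after the windows had been seen, so nothing is drawn from a match. Of the 15, 10 occurred in at least 1 of the 9 windows and 5 in none, and no match says only that those letters are not in the window. CTTTGAT occurs in 2.62% of all 35116 RefSeq windows of this length, CATTGT in 10.8%, GGGCGG in 45.0%, TGACGTC in 3.45%, AGGTGT in 11.4%, TATAAA in 11.5% and TATATA in 3.99%. GGGCGG was in 6 of the 9 member windows.

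Per length of transcript, the order of the members differed between the groups. Levels were taken as normalised counts per kilobase (kb), using the mean length of a gene's coding transcripts in GENCODE 29. In EXT1-/- cells FGF8 (905 ± 336 per kb), FGF18 (849 ± 194) and FGF17 (790 ± 388) came first, with overlapping spreads (SD, n = 4). These genes were measured in the same libraries and were all highest in replicate 4. The overlap therefore does not compare them with each other, and their order was not tested. FGF2 (411 ± 62.2), FGF11 (385 ± 39.4) and FGF19 (336 ± 72.3) formed a middle group with overlapping spreads, followed by FGF12 (237 ± 37.3) and FGF13 (203 ± 17.1). In WT cells FGF2 (577 ± 93.2 per kb), FGF13 (576 ± 38.5), FGF8 (560 ± 80.1) and FGF11 (558 ± 81.8) stood together at the top, and FGF17 (127 ± 11.4) was the lowest but FGF9 with these lengths. FGF4 and FGF9 were the lowest in EXT1-/- cells, at 51.3 ± 10.3 and 8.71 ± 1.89 per kb, while in WT cells FGF4 reached 185 ± 27.0 and FGF9 2.84 ± 0.335. The order depends on the length used. FGF13's coding transcripts average 3372 bases and the longest has 19519, and with the longest it drops to 35.1 per kb in EXT1-/- cells and 99.5 in WT cells. With the longest transcripts FGF12 drops likewise to 80.4 per kb in EXT1-/- cells and 67.2 in WT cells, and FGF11 to 243 in EXT1-/- cells and 352 in WT cells. The WT order then begins with FGF8 (508), FGF19 (414) and FGF2 (387), and FGF17 (127) stands above FGF13 and FGF12.

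The 7 genes of secreted ligands summed to 3153, 2652, 2868 and 4733 normalised counts per kb in EXT1-/- replicates 1 to 4, against 1967, 2134, 2260 and 2160 in WT replicates 1 to 4. All 4 EXT1-/- sums were above all WT sums, and replicate 4 was the highest by a wide margin. FGF8, FGF17 and FGF18 together made up 77.2, 70.4, 70.3 and 81.5% of this sum in the EXT1-/- libraries and 48.1, 42.9, 48.0 and 39.9% in the WT libraries. FGF2 took 11.1, 17.6, 16.1 and 7.72% in the EXT1-/- libraries and 22.6, 30.7, 25.9 and 28.9% in the WT libraries. FGF4 averaged 1.57% in EXT1-/- cells and 8.66% in WT cells. Per kb, the mix of secreted ligand transcripts was thus mostly of the FGF8 subfamily in EXT1-/- cells and more even in WT cells. These shares depend on the lengths, with a mean of 776 bases for FGF8 and 4544 for FGF2. By count, FGF2 was the highest of the 7 in every WT library (2018 to 2979) and in EXT1-/- replicates 2 and 3 (2116 and 2103). FGF18 was the highest in EXT1-/- replicate 1 (1783) and FGF17 in replicate 4 (2318). These sums are descriptions and carry no test. Without division by length the same 7 genes summed to 6195, 5684, 6089 and 8557 normalised counts in the EXT1-/- libraries, against 4804, 5620, 5552 and 5708 in the WT libraries. On that scale EXT1-/- replicate 2 lay below WT replicate 4, so the separation of the sums depends on the scale per kb. In bulk RNA, fewer cells of a type and less RNA per cell cannot be told apart.

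**Figure D3:**
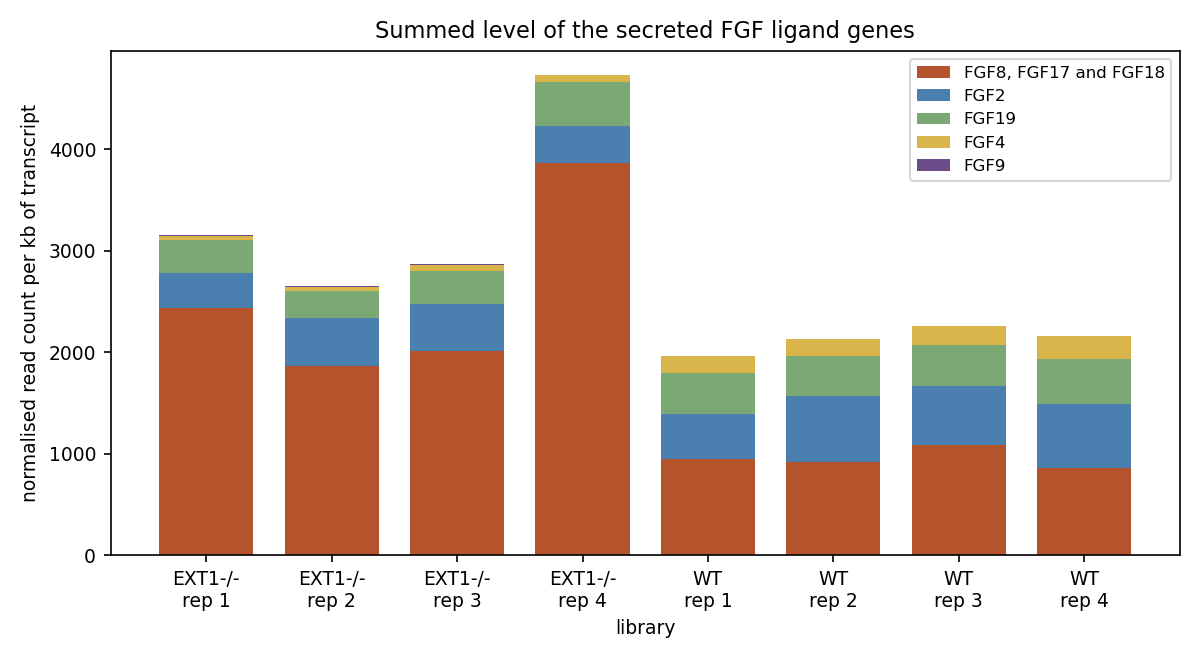
Normalised read count per kb of transcript of the 7 secreted FGF ligand genes, stacked per library, with the 4 EXT1-/- libraries on the left and the 4 WT libraries on the right. The FGF8, FGF17 and FGF18 segment runs from 1868 to 3859 per kb in EXT1-/- libraries and from 861.9 to 1084 in WT libraries, and FGF9 is too low to be seen in WT.

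Within the EXT1-/- group, replicate 4 was the highest library for 7 of the 10 members (FGF4, FGF8, FGF12, FGF13, FGF17, FGF18 and FGF19), and replicate 2 was the lowest for 6. Among the WT libraries, replicate 4 was the highest for 4 members and replicate 1 the lowest for 6. Many other genes had their highest EXT1-/- value in the same replicate, among them 7 of 8 mesendoderm markers, all 5 neural crest and plate border markers, 4 of 5 neuroectoderm markers and none of 7 pluripotency markers. SP5, a direct β-catenin target, had 7274, 6997, 6539 and 15484 normalised counts in the EXT1-/- libraries, against 3979, 4826, 5628 and 4512 in the WT libraries. TBXT, the streak factor Brachyury, had 3072, 3002, 3328 and 4932 in the EXT1-/- libraries, against 6293, 6244, 7319 and 6378 in the WT libraries. Sharing replicate 4 as the highest library is thus not particular to the ligand genes or to streak genes. Without EXT1-/- replicate 4 the log2 fold changes were 2.22 for FGF17, 1.54 for FGF18, 0.40 for FGF8 and 0.15 for FGF12. They were -1.97 for FGF4, -1.56 for FGF13 and -0.46 for FGF19. What set this library apart was not tested.

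Over the 21 different neighbours (genes overlapping a member or nearest to it on either side, other than members), 3 were called higher, 6 lower and 12 were not called. Over all genes 15.2% were called higher and 16.8% lower, the shares to set beside this count and the list counts below. DMTN, an actin-bundling protein gene that starts 186 bases beyond the end of FGF17 on the same strand, was among the 3 that were higher. It had 211, 172, 191 and 296 normalised counts in the EXT1-/- libraries, against 73, 73, 83 and 69 in the WT libraries, a log2 fold change of 1.51 ± 0.17 (adjusted p 0.000192, limma). Like FGF17 it was highest in EXT1-/- replicate 4. NPM3, a nuclear chaperone gene 956 bases from FGF8, was lower in EXT1-/- cells, with 2592 ± 275 in EXT1-/- cells and 3679 ± 490 in WT cells (SD, n = 4 each), a difference of -0.50 on the log2 scale with an adjusted p of 0.00953 (limma). CHRNB1, 124 bases beyond FGF11, had a log2 fold change of -0.26 and was not called (adjusted p 0.103, limma).

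Among the genes through which FGFs act, 3 of 5 receptor genes were called higher and 17 of 20 ERK feedback and target genes lower. Of these 17, 3 were listed through WT libraries alone. No receptor gene was called lower and 2 were not called, and the list had a median log2 fold change of 0.67 against 0.01 over all genes. FGFR3 had 696, 742, 657 and 809 normalised counts in the EXT1-/- libraries, against 209, 210, 240 and 174 in the WT libraries (log2 fold change 1.80 ± 0.11, adjusted p 6.61e-06, limma). FGFR1, by far the most abundant by count, rose by 0.67 and FGFR2 by 0.69, while FGFR4 (0.15, adjusted p 0.347) and the decoy-like FGFRL1 (0.17, adjusted p 0.524) were not called. FGFR1, FGFR2 and FGFR3 were therefore higher in the same EXT1-/- group of libraries as FGF17 and FGF18, and FGF4 and FGF2 were lower there. Bulk RNA does not show whether the same cells expressed them.

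Of the 20 ERK feedback and target genes, 1 (CCND1, cyclin D1, 0.68) was higher and 2 were not called, with a median log2 fold change of -1.91. DUSP6, the phosphatase that ERK induces against itself, had 42, 42, 42 and 58 normalised counts in the EXT1-/- libraries, against 599, 651, 669 and 695 in the WT libraries. Of the 17, EGR1, FOS and FOSL1 reached the 1 CPM entry level in WT libraries alone and so had to be lower to be listed, which leaves 14 without this limit. Among those with it, the early response factor EGR1 fell by 4.56 on the log2 scale. Among those without it, the ETS factors ETV5 and ETV4 fell by 3.56 and 3.06, and the feedback inhibitor SPRY4 by 3.09. The 4 EXT1-/- libraries thus had the higher summed level of secreted ligand genes per kb and the lower level of the 14 genes without this limit. By count, the ligand sums of the 2 groups overlapped, and a link between ligand genes and these targets was not tested. Of 19 signal transducers from FRS2 to MAPK3, 2 were higher, 1 was lower (the adaptor gene SHC1, -0.52) and 16 were not called, with a median of 0.08.

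Of 7 extracellular FGF modulators, 5 were lower, 1 was higher and 1 was not called (median -0.57). ANOS1, anosmin, a heparan sulfate-binding modulator of FGFR1, averaged 1448 ± 138 normalised counts in EXT1-/- cells and 4514 ± 244 in WT cells (SD, n = 4 each), a difference of -1.64 on the log2 scale with an adjusted p of 1.90e-06 (limma). The extracellular sulfatase gene SULF1 fell by 1.60 and SULF2 by 0.57, the heparanase gene HPSE, listed through WT libraries alone, by 0.73 and FLRT2 by 0.35. FLRT3, which binds FGF receptors and in frog embryos promotes FGF signalling, was the one that rose, by 1.56 ± 0.24. Among partners of the intracellular factors, the sodium channel gene SCN4A (1.10) and the scaffold gene MAPK8IP2 (1.28) were higher, SCN8A was lower (-0.34), and SCN9A and SCN11A were not called.

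**Figure D4:**
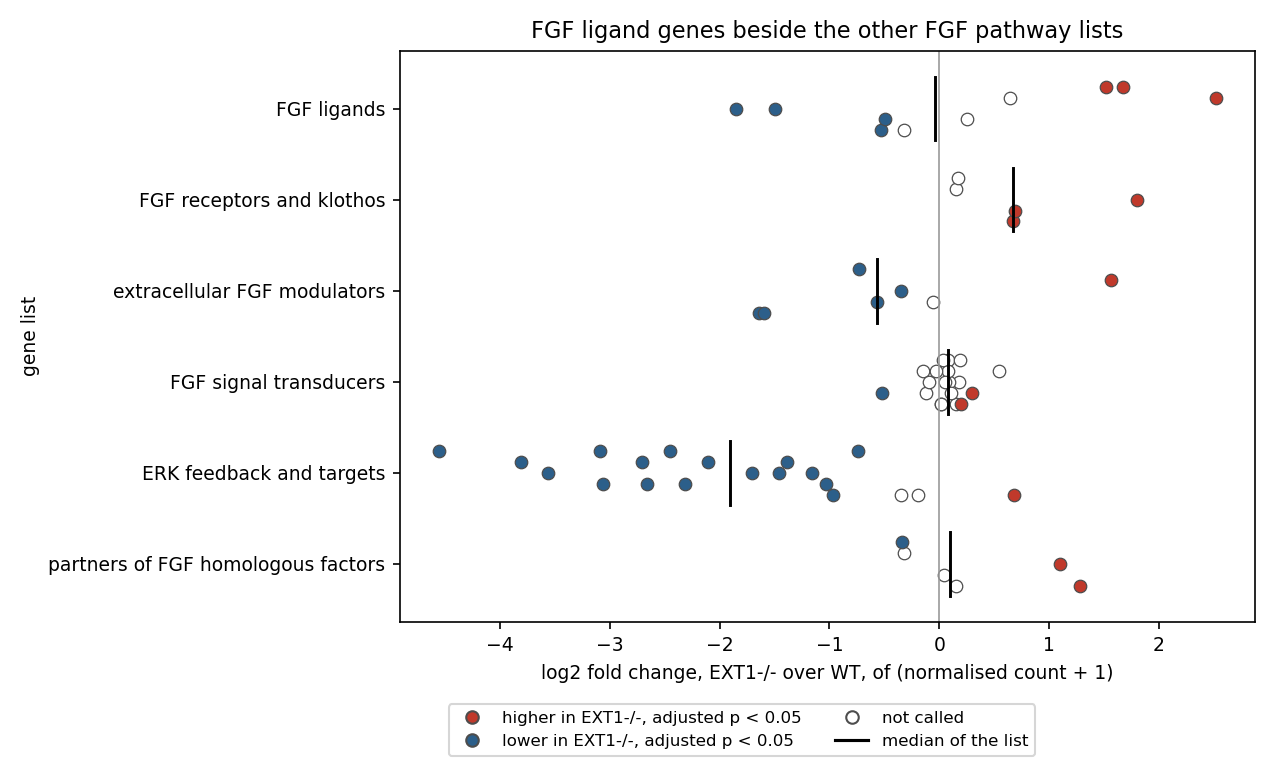
Log2 fold change, EXT1-/- over WT, of the 10 FGF ligand genes and of the genes of 5 FGF pathway lists; each point is a gene, filled where the adjusted p was below 0.05 (red higher, blue lower), and black bars are list medians. The ligand genes spread from -1.85 to 2.52 around a median of -0.04, while the ERK feedback and target list has a median of -1.91.

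Markers of the induced fate and of other fates differed between the same groups, but several reached the 1 CPM entry level in 1 group alone, so that listing fixed their direction. TBXT, MIXL1, EOMES and NODAL were present and lower in EXT1-/- cells, and the 8 measured mesendoderm markers gave 4 lower, 1 higher (SP5) and 3 not called, of which GSC was listed through WT alone. All 5 measured neural crest and plate border markers were higher, with summed counts of 5482 to 13290 in EXT1-/- libraries and 578 to 744 in WT libraries. TFAP2A and DLX5 were listed through EXT1-/- libraries alone, which leaves 3 calls (PAX3, MSX1 and MSX2). Of 5 neuroectoderm markers 4 were higher and 1 lower, with sums of 5937 to 9577 in EXT1-/- libraries and 2183 to 2643 in WT libraries. OTX1 and POU3F2 were listed through EXT1-/- libraries alone and OTX2 through WT libraries alone, which leaves 2 higher (ZIC1 and GBX2) and 0 lower. TFAP2A is in both the crest and the amnion list. Of 6 amnion and trophectoderm markers 2 were higher and 2 lower (sums of 4061 to 6718 in EXT1-/- libraries and 3688 to 3963 in WT libraries), of 5 definitive endoderm markers 2 and 2 (1291 to 1902 in EXT1-/- and 537 to 586 in WT), and of 5 lateral mesoderm markers 3 and 2 (2126 to 2680 in EXT1-/- and 11151 to 12063 in WT). In these 3 lists TFAP2A, HAND1 and TBX3 were listed through EXT1-/- libraries alone, and GABRP, FOXA2 and HHEX through WT libraries alone. Most of the amnion and trophectoderm sums came from CDX2 (3389 to 5871 in EXT1-/- and 3207 to 3552 in WT), which was not called. Most of the lateral mesoderm sums came from KDR (1458 to 1793 in EXT1-/- and 9967 to 10796 in WT). Of 7 pluripotency markers 4 were lower and 2 higher, with sums of 59299 to 66517 in EXT1-/- libraries and 101491 to 104889 in WT libraries. POU5F1 gave most of these (31218 to 34305 in EXT1-/- and 56260 to 61734 in WT). MSX1 gave most of the crest sums (3974 to 10856 in EXT1-/- and 390 to 536 in WT). GBX2 gave most of the neuroectoderm sums in WT (1915 to 2350), and GBX2 with ZIC1 in EXT1-/-. CXCR4 and GATA4 gave most of the endoderm sums in EXT1-/-. None of these sums therefore describes its list as a whole. HAND1, a lateral mesoderm marker, was the one marker with a library at 0: it had 63, 42, 40 and 104 normalised counts in the EXT1-/- libraries, against 0, 0, 1 and 1 in the WT libraries. Markers absent from the table were not analysed here, and the part of these cell states in the ligand differences was not tested.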

How the data were processed

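Total RNA libraries (TruSeq Stranded) of 4 EXT1-/- and 4 WT samples were grouped by their labels. Per the submitters' processing notes, reads were processed with STAR, RSEM and edgeR on GRCh38.p10; settings and strand use are not given in the sources used here. The deposited table holds normalised values per gene as whole numbers (signal). It also holds the authors' log2 fold changes, p-values with FDR, and a likelihood ratio score, which was not used. How the authors scaled the values is not given in the sources used here. Effective library sizes computed here from these values by a trimmed mean were near equal, at 38890748 to 38903940. Because the values are not raw counts, limma 3.58.1 (R 4.3.3, with intensity trend) was run on log2(value + 1) with genotype as the only term over 15811 genes, with Benjamini-Hochberg adjustment at 0.05. The fit was tested on simulated data. Depth before normalisation is unknown, so no counting intervals are given. GENCODE 29 gave positions and lengths (15777 genes matched, 99.8%), and RefSeq the promoter windows. Replicate pairs gave a chi-square per degree of freedom of 4.43 to 10.79 within a library set, computed on the normalised values. With the depth unknown, this does not settle whether they differed beyond counting noise. All 8 were counted as separate libraries. All members were named, with EXT1 and the measured genes of the pathway and marker lists; neighbours were the overlapping or nearest genes. The members, lists, library sets and tests were chosen with earlier results of these data known, and the promoter strings after the sequences were seen. The 16 alternatives covered scaling, filter, pseudocount, trend, library set, replicate block and each library left out. Values of some list genes are not reported here.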

Additional observations from a re-analysis of the deposited data

Results flagged for a closer look

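In the EXT1-/- group FGF8 had 1089 normalised counts in replicate 4, against 530 to 625 in the other 3 EXT1-/- libraries and 385 to 525 in the WT libraries. The gap to the nearest EXT1-/- library was 0.83 of the group's range, just past Dixon's critical value for a group of 4 samples. It was the 1 flag among 20 groups of values tested (10 genes in each genotype), and chance flags about 1 in 20.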

How the results depend on the processing

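Of 16 alternatives, FGF4, FGF11, FGF13, FGF17 and FGF18 kept their direction and call in all, and FGF12 was called in none. FGF9 kept its direction and call in the 15 that tested it. Its direction was fixed by its listing through EXT1-/- libraries alone, so this adds no support. FGF2 lost its call with equal totals per library (-0.48, adjusted p 0.0501). Leaving out single libraries gave log2 fold changes of -0.61 to -0.41 for FGF2, 0.40 to 0.75 for FGF8 and -0.46 to -0.21 for FGF19. FGF8 was called with equal totals (0.64, adjusted p 0.0445), with the library set as a term (0.58) and without EXT1-/- replicate 2 (0.75) or 4 (0.40). FGF19 was called with the set as a term (-0.37), in the low set (-0.50), without EXT1-/- replicate 4 (-0.46) and with the replicate block (-0.32). The replicate block changed no other member's call. Deviations of same-numbered libraries correlated at -0.52 (replicate 4) to 0.67 (replicate 1). Replicate 1 was in the high set in both groups, and replicate 4 in the EXT1-/- group alone. These correlations thus do not settle whether replicate numbers pair the samples. With the set as a term 8195 genes were called in all, against 5063. Called genes among the signal transducers numbered 8 with the set as a term and 6 in the low set, against 3, and mesendoderm markers 8 in the low set, against 5. Without WT replicate 2, 3 modulators were called, against 6. The 1 CPM filter removed FGF9 and left 0 calls among other FGF family genes. With the longest transcripts the secreted ligands summed to 3129 per kb in EXT1-/- cells and 1887 in WT cells. The cause of these shifts was not tested. The library sets were known from earlier results when they were chosen as an alternative.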
